A study of Oryza sativa with 4 samples.

Results

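Young panicles of rice (Oryza sativa) collected in 2014 were compared with those collected in 2013, in both genotypes of the series at once. The members are all 4 arrays of the series, chosen by the year in their titles, with 2 arrays of 2013 and 2 of 2014. In each year 1 array came from WT, the cultivar ZH11, and 1 from ago2-1, labelled as an antisense line for OsAGO2, which encodes an argonaute that binds small RNAs. Plants were field grown in normal conditions and the panicles were young ones at an early stage. With 1 array per genotype and year, n = 2 arrays a year. The number of plants behind an array and the hour of cutting are not given in the sources used here. Nor are the promoter of the antisense construct and the part of OsAGO2 it covers. A p-value rests on how far the changes of both genotypes differ, joined to a prior spread over all probe sets. A response of 1 genotype only counts as noise there, and the spread may be technical. Year and season are 1 factor here. Hour of sampling and array batch are not given by the labels, and any difference in them between the years cannot be told apart from that factor.

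A rice panicle passes from meristems that form branches and spikelets to florets whose anthers hold meiotic cells and a nourishing layer, the tapetum. Many plant transcripts follow the day through the circadian clock, a loop of dawn and evening genes. Dawn genes such as LHY repress evening genes such as PRR1, GI and PCL1, and evening genes in turn act on the dawn genes. Light, heat, wounding and drought act on top of it through genes for chlorophyll and photosystems, heat shock proteins, jasmonate and abscisic acid. These classes are read below first where both genotypes moved alike and then where only 1 did.

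Levels are log2 probe set intensities after quantile normalization of the 4 arrays, and a change is the level of 2014 minus that of 2013. A gene was read on its brightest probe set among those tied to 1 gene, which gave 17905 genes. Probe sets of the _s_at or _x_at type may share hybridization with related genes. Those of SAPK9, NFYB8, RBBI3.3, HSFA2A, RBCS, ADI1 and LOC4326757 are among them. Of the 764 genes that passed and have several probe sets, 482 had all of them changed in the same direction, so a result on 1 probe set need not hold for the others. The median deposited intensity was 28.8 to 29.1 in 2013 and 45.2 to 45.3 in 2014, so the years had been scaled apart. After quantile normalization the median change of all probe sets was 0.01. As a description across probe sets, the 2 genotypes correlated at r = 0.989 in 2013 and 0.994 in 2014, above the 0.974 (WT) and 0.980 (ago2-1) of 1 genotype over both years. The WT array of 2013 stood apart in part of the genes. It was at least 2-fold above each of the other 3 arrays in 407 genes (2.27%), against 42 genes for the array labelled ago2-1 of that year, 6 for WT of 2014 and 26 for the array labelled ago2-1 of 2014, a count chosen after the values were seen. Of the 9 panicle markers measured, 8 (OSH1 and MADS1 among them) lay above the median of all probe sets on all 4 arrays, while FZP, a spikelet meristem gene, lay below it at 2.81 to 3.01. None of these 9 markers passed the test between the years. AGO2 itself was at 9.84 in WT and 9.92 in the array labelled ago2-1 in 2013, and at 10.24 and 10.68 in 2014. It was not lower on either array labelled ago2-1, so directions given for that genotype are those of the arrays so labelled. Between the years AGO2 rose by 0.58 (95% interval 0.22 to 0.94, limma adjusted p = 0.0407), and did not pass with an array of 2013 left out (adjusted p = 0.178 for WT and 0.127 for ago2-1).

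The year separated many genes. Both arrays of 2014 lay above both of 2013 in 5753 of the 17905 genes and below both in 5594. That the years do not overlap is therefore common and by itself marks out no gene named below. With genotype as a term, limma called 6995 of 57194 probe sets higher in 2014 (12.2%) and 6343 lower (11.1%) at an adjusted p under 0.05. On the deposited values, which keep a median shift of 0.71 between the years, the split was 44735 higher and 1323 lower, so every change here is relative to that shift. By gene, 2019 rose (11.3%) and 1927 fell (10.8%), shares against which each list's count below is to be read. Genes that passed and moved at least 2-fold the same way in WT and in the arrays labelled ago2-1 numbered 391 higher (2.18%) and 373 lower (2.08%). The SE had a median of 0.13 and rests on 1 residual degree of freedom joined to 4.48 prior ones. With either array of 2014 left out, and no genotype term, limma called 0 probe sets (12689 at an unadjusted p under 0.05 without the WT array and 12544 without the array labelled ago2-1), since the spread then comes from the arrays of 2013 alone. No call named below remained there. Without an array of 2013, again with no genotype term, fewer probe sets and fewer genes were called in both directions over the whole array. A list count that drops there is to be read against that general drop, not against the shares with all 4 arrays. Most counts that leaving out an array moves by over 1.5 times are given with each list below.

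Across the 57194 probe sets the change in WT and the change in the arrays labelled ago2-1 had r = 0.76 (Spearman 0.74), a description over probe sets that share arrays and are not independent. Of the genes at least 2-fold higher, 650 in WT and 558 in the arrays labelled ago2-1, 391 were shared, which is 60.2% of the WT list and 70.1% of the other. Falls were less evenly shared. WT had 1035 genes at least 2-fold lower and ago2-1 had 573, and the 375 in common made up 36.2% of the first and 65.4% of the second. At 16-fold, WT had 46 genes lower and the arrays labelled ago2-1 had 16, with 10 in common.

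**Figure D1:**
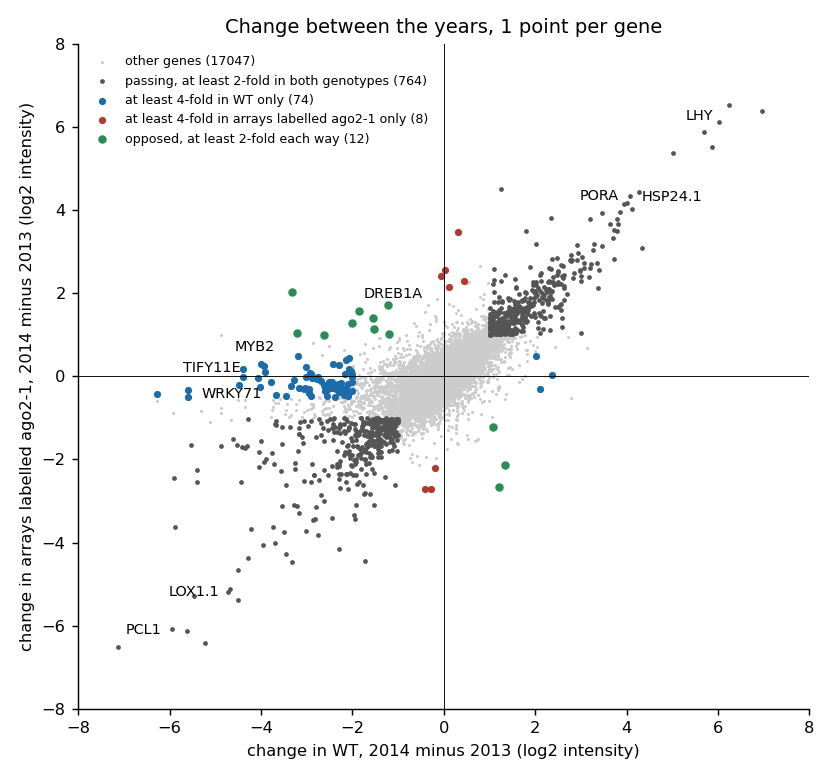
Change from 2013 to 2014 in WT (x axis, log2 intensity) against that in the arrays labelled ago2-1 (y axis, log2 intensity), 1 point per gene for 17905 genes. The 764 genes that passed and moved at least 2-fold in both genotypes lie along the diagonal (dark grey), with LHY and PCL1 near its ends, while most genes moved in WT only (blue) sit on the left beside the horizontal axis.

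Clock genes held the largest shared changes of genes with a name of their own. LHY, the dawn repressor also called CCA1, lay at 6.60 and 6.66 on the WT and ago2-1 arrays of 2013 and at 12.64 and 12.79 on those of 2014. Both arrays of 2014 were far above both of 2013, and LHY rose by 6.08 (95% interval 5.77 to 6.39, limma adjusted p = 0.000282). A second LHY probe set changed by −0.53, so the rise is shown for the brightest probe set only. PCL1, an evening gene related to LUX of Arabidopsis, was at 10.30 and 10.60 in 2013 and at 4.34 and 4.51 in 2014. It fell by 6.03 (interval −6.34 to −5.71), and again the years did not overlap. Its levels of 2014 lay under the median of all probe sets, 5.18, and no measure of background was used here, so for PCL1 and every gene below that falls under that level in 1 year (LOX1.1, NIP4-1, WRKY76 and HSFC1B among them) the years are told apart but the size of the change is not settled.

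GI, an evening gene that ties the clock to flowering, was at 12.11 and 12.46 in 2013 and at 9.26 and 9.02 in 2014, a change of −3.15 (adjusted p = 0.00161). PRR1, the rice counterpart of Arabidopsis TOC1, was at 9.43 and 9.76 in 2013 and at 6.63 and 6.61 in 2014, a change of −2.98 (adjusted p = 0.00127). All 3 evening genes were lower in 2014 on both arrays. The pseudo-response regulator PRR95 rose by 1.01 (adjusted p = 0.00823), from 9.29 and 9.61 to 10.28 and 10.65. PRR73 (0.45, adjusted p = 0.0707) and PRR37 (0.14, adjusted p = 0.443) did not pass, and each had a second probe set of the other sign (−0.99 and −0.66). In all, 2 of the 7 measured clock genes rose (1 without the WT array of 2013, 3 without that labelled ago2-1) and 3 fell, also without either array of 2013.

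Of 14 genes for flowering time and light perception, 2 rose (14.3%) and 1 fell (7.14%), against 11.3% and 10.8% of all genes. Hd1, the CONSTANS-like gene that delays or promotes flowering with day length, was at 5.78 and 6.89 in 2013 and at 3.51 and 4.21 in 2014. It fell by 2.47 (adjusted p = 0.00181), with no overlap between the years. MADS50, a promoter of flowering, rose by 0.85 and PHOT2, a blue light receptor, rose by 0.76. The red light receptors PHYA (0.17), PhyB (0.16) and phyC (−0.45) did not pass. The 2 rises were 0 and 1 without the WT or the ago2-1 array of 2013.

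Photosynthesis genes stood higher in 2014 in both genotypes. Of the 9 measured, 8 rose (88.9%, against 11.3% of all genes) and none fell, and their median change was 1.59, against −0.01 over all genes. PORA, which reduces protochlorophyllide in the light, was at 6.78 and 6.72 in 2013 and at 10.64 and 10.67 in 2014, a rise of 3.91 (interval 3.60 to 4.22, adjusted p = 0.000482). LHCP, a chlorophyll-binding antenna protein, was at 9.24 and 9.43 in 2013 and at 12.95 and 12.75 in 2014, a rise of 3.52 (adjusted p = 0.000924). For both genes the genotypes of a year lay close together and the years far apart. The count of 8 was the same without either array of 2013.

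RBCS, the small subunit of Rubisco, rose by 2.40, and its other probe sets changed by 0.62 to 1.47. Further rises were those of the photosystem I subunits PSAG (2.90) and PSAH (1.59), the antenna gene CAB2R (1.48), the Rubisco activase gene rca (0.96) and PORB (0.96). A second PSAG probe set changed by −0.39. RBCS1, the remaining member, was dim at 2.18 to 2.45 and did not pass (0.06).

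Plastid genes outside that list were also among the 15 largest shared rises of named genes with a 2014 mean above the median of all probe sets. CHLP, which adds the phytol tail of chlorophyll, was at 8.06 and 7.93 in 2013 and at 10.81 and 10.73 in 2014, a rise of 2.78 (adjusted p = 0.00101). PSB28, an assembly factor of photosystem II, rose by 2.50, the ferredoxin gene ADI1 by 2.40, and PSY2, a phytoene synthase of carotenoid formation, by 2.21. MSRB1, a methionine sulfoxide reductase, rose by 2.28. In whole panicles a change in the share of green cells and a change in RNA per cell cannot be told apart, here and in all results below. The 4 green tissue markers are all genes of the photosynthesis list and so give no separate evidence. Their summed level (log2) was 12.37 and 12.59 in 2013 and 14.52 and 14.37 in 2014, and their part in other changes was not tested.

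**Figure D2:**
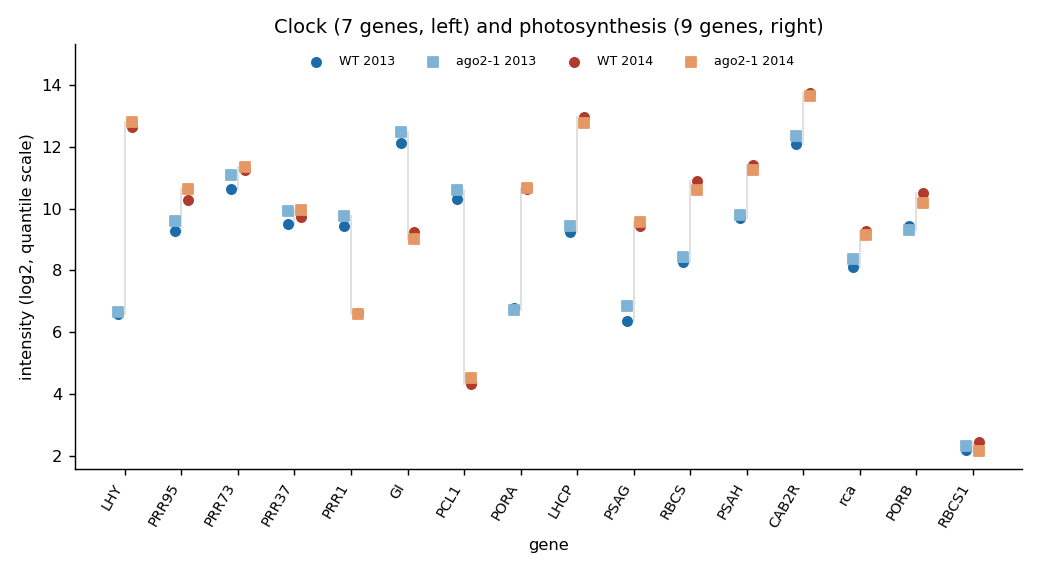
Intensity (y axis, log2, quantile scale) of the 7 clock genes and the 9 photosynthesis genes (x axis) on each of the 4 arrays, 1 point per array (circles WT, squares labelled ago2-1, blue 2013, red and orange 2014). LHY and 8 of 9 photosynthesis genes lie higher on both arrays of 2014, and PCL1, GI and PRR1 lie lower on both. Of all 17905 genes, 5753 lie higher and 5594 lower on both.

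Heat shock proteins, chaperones that keep other proteins folded, and their transcription factors (HSFs) were measured with 45 genes. Of these, 20 rose (44.4%, against 11.3% of all genes) and 4 fell, and 12 were at least 2-fold higher in both genotypes. The median change was 0.34. The counts were 16 and 1 without the WT array of 2013, and 13 and 5 without that labelled ago2-1. HSP24.1, a small heat shock protein, was at 6.25 and 5.37 in 2013 and at 10.33 and 9.70 in 2014. It rose by 4.21 (interval 3.88 to 4.54, adjusted p = 0.000482), and the years lay apart by more than the genotypes did.

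Other small heat shock proteins that rose were HSP18.0 (2.03), HSP17.4 (1.998), HSP16.9B (1.53) and HSP17.9A (1.36). Among the larger chaperones, the disaggregases CLPB-M (1.97) and CLPB1 (1.55), the HSP90 gene HSP81-1 (1.07) and the endoplasmic reticulum chaperone BIP1 (0.67) rose. HSP81-2 and HSP81-3, from the same family as HSP81-1, did not pass. Close relatives such as HSP16.9A and HSP16.9B, which are neighbours on chromosome 1, may share hybridization.

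The HSFs went both ways. HSFA2A, of the activator class, was at 4.54 and 4.57 in 2013 and at 7.52 and 7.12 in 2014. It rose by 2.77 (limma adjusted p = 0.00154), while its other probe sets changed by only 0.60 and 1.12. HSFB2C, of the class without an activation domain, rose by 3.08, by 2.34 in WT and 3.82 in the arrays labelled ago2-1. HSFC1B was at 7.93 and 8.79 in 2013 and at 4.24 and 4.77 in 2014 and fell by 3.86 (adjusted p = 0.000659). HSFA3 fell by 1.41, with −2.08 in WT and −0.74 in the arrays labelled ago2-1. HSFB2A did not pass, at 0.11 in WT and 1.74 in the arrays labelled ago2-1.

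**Figure D3:**
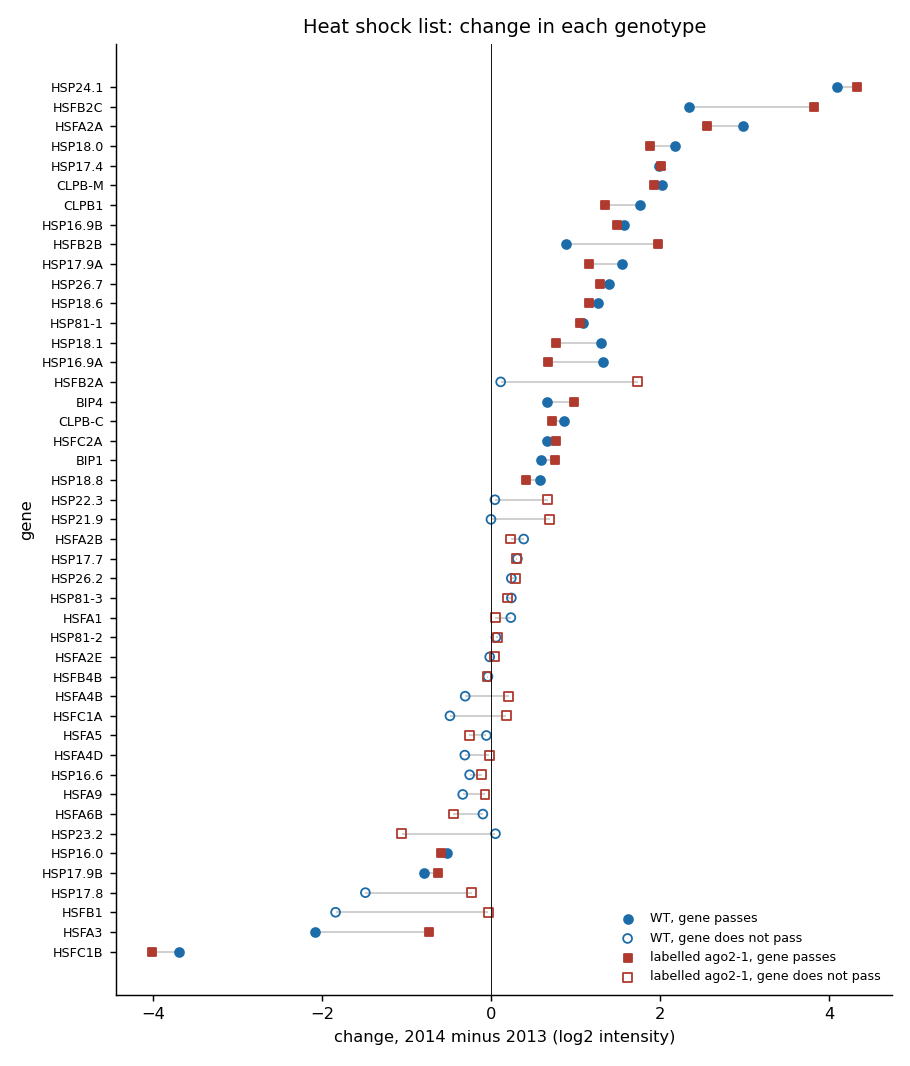
Change from 2013 to 2014 (x axis, log2 intensity) of the 45 heat shock genes (y axis) in WT (circles) and in the arrays labelled ago2-1 (squares), filled where the gene passed the test. Most filled pairs lie to the right of 0, from HSP24.1 at the top, while HSFC1B lies lowest at −3.86.

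Jasmonate genes ran the other way. Jasmonate is a wound and development hormone made from fatty acids by lipoxygenases (LOX), allene oxide synthase (AOS) and cyclase and OPDA reductases (OPR), and JAZ proteins (the TIFY genes here) repress its targets. Of 39 measured genes, 10 fell (25.6%, against 10.8% of all genes) and 1 rose. The falls numbered 6 without the WT array of 2013 and 16 without that labelled ago2-1, with no rise in either case. LOX1.1 was at 8.84 and 8.72 in 2013 and at 4.12 and 3.52 in 2014 and fell by 4.96 (interval −5.35 to −4.57, adjusted p = 0.000482). Both arrays of 2014 were far below both of 2013. LOX1.1 entered the list by its name, and whether it acts in jasmonate synthesis was not examined. AOS2 fell by 1.64 and OPR7 by 0.89.

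The JAZ genes fell unevenly. TIFY11C was at 10.04 in WT and 7.62 in the array labelled ago2-1 in 2013, and at 5.61 and 5.09 in 2014. It fell by 3.48 (adjusted p = 0.00855), by 4.43 in WT and 2.53 in the arrays labelled ago2-1, and by 2.28 without the WT array of 2013. TIFY11D fell by 3.09 (adjusted p = 0.0253), by 4.53 and 1.66, and by 1.82 without that array. TIFY10C (−1.85, and −0.82 without that array) and TIFY11A (−1.20) also fell. TIFY5 was the 1 riser (0.66), but its levels followed the genotype, at 2.87 and 3.58 on the WT arrays and 8.66 and 9.27 on those labelled ago2-1. The median change of the list was −0.45 in WT and −0.10 in the arrays labelled ago2-1, and that contrast could not be tested. In WT, 12 of its genes were at least 2-fold lower, against 4 in the arrays labelled ago2-1.

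Abscisic acid genes included a large shared fall, and 23.8% of the list fell, against 10.8% of all genes. SAPK9, a kinase activated by that hormone, was at 10.75 and 11.37 in 2013 and at 6.79 and 7.31 in 2014. It fell by 4.01 (interval −4.32 to −3.70, adjusted p = 0.000482) with close values in both genotypes (−3.96 and −4.06). SAPK10 fell by 1.27 and ABA8OX2, a hydroxylase that breaks the hormone down, by 1.03. Of the 21 genes of the list, 5 fell and 2 rose, the dehydrin Dhn1 by 0.56 and LEA19 by 0.72 (1 rise without the WT array of 2013, 3 without that labelled ago2-1). Of 55 protein phosphatases 2C, a family that includes negative regulators of this pathway, 3 rose and 5 fell, below the shares of all genes, with OsPP2C11 (−1.40) and PP2C68 (−1.41) lowest among those that passed. The rises of this family numbered 1 without the WT array of 2013 and 4 without that labelled ago2-1.

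Of the remaining falls shared by both genotypes, WRKY76, a repressor in defence and cold responses, went from 6.86 and 6.64 to 3.33 and 3.51 (−3.33, adjusted p = 0.00107). NIP4-1, an aquaporin of the nodulin-like class, was at 8.04 and 6.03 in 2013 and at 2.16 and 2.41 in 2014, a change of −4.75. CML31, a calmodulin-like calcium sensor, was at 10.81 and 7.12 in 2013 and at 5.40 and 4.86 in 2014, a change of −3.83 (adjusted p = 0.0193). For NIP4-1 and CML31 the WT array of 2013 was the highest of the 4, above that labelled ago2-1 of the same year, and without it their changes were −3.69 and −1.99. GER2, a germin-like protein, fell by 2.79, and the metallothionein MT1A fell by 2.66 with −4.28 in WT and −1.03 in the arrays labelled ago2-1 (adjusted p = 0.0481), and it did not pass without the WT array of 2013 (−1.78, adjusted p = 0.132).

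RBBI3.3, a Bowman-Birk type protease inhibitor, went from 11.43 and 11.01 to 8.37 and 8.49 (−2.79, adjusted p = 0.00178). Its neighbour pinA fell by 2.61, and LOC4326000 beside them also fell, so these 3 adjacent genes moved between −3.23 and −2.61. Of shared rises outside the groups above, U2AF35A, the small subunit of a splicing factor, rose by 2.85, from 7.77 and 7.88 to 10.56 and 10.79. NFYB8, a subunit of a CCAAT-binding factor, rose by 3.27, from 3.86 and 4.94 to 7.59 and 7.75. Both genes were higher on each array of 2014 than on any of 2013.

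Of genes without a name of their own, only the 3 largest shared rises and the 3 largest shared falls are given here. LOC4326757 was at 3.10 and 3.11 in 2013 and at 10.06 and 9.49 in 2014 (6.67). LOC4342551 changed by 6.38 and LOC4326913 by 5.80. LOC4328039 was at 10.12 and 9.29 in 2013 and at 2.99 and 2.79 in 2014 (−6.81), and LOC4343572 (−5.88) and LOC4349162 (−5.82) followed. All 6 passed (adjusted p from 0.000282 to 0.0013), LOC4349162 not without the WT array of 2013 (adjusted p = 0.0517). Their lower levels were all under the median of all probe sets, so the sizes of these changes are not settled either.

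**Figure D4:**
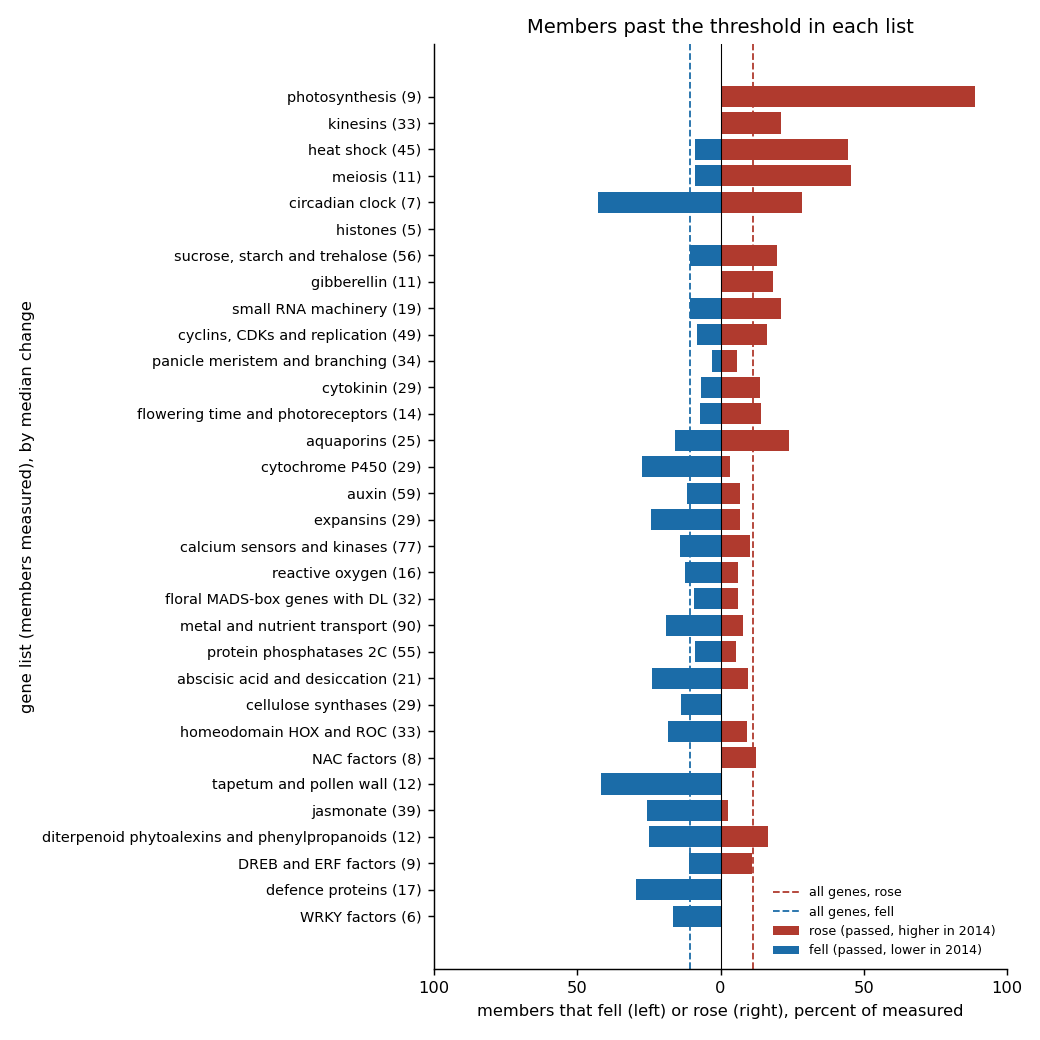
Share of measured members (x axis, percent) that rose (right, red) or fell (left, blue) between 2013 and 2014 in each of the 32 gene lists (y axis, ordered by median change). Dashed lines give the shares over all genes, 11.3% and 10.8%, and the photosynthesis, heat shock and meiosis lists reach 88.9%, 44.4% and 45.5% on the right.

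Some anther genes fell. Of 12 measured tapetum and pollen wall genes, 5 fell (41.7%, against 10.8% of all genes) and none rose, with a median change of −0.31. The falls numbered 1 without the WT array of 2013 and 2 without that labelled ago2-1. CYP703A3, a hydroxylase that makes sporopollenin precursors in the tapetum, was at 10.49 and 9.64 in 2013 and at 8.96 and 7.30 in 2014 and fell by 1.93 (adjusted p = 0.00684), but did not pass with WT of 2013 left out (−1.49, adjusted p = 0.21) or with ago2-1 of 2013 left out (−2.35, adjusted p = 0.0854). PTC1, a regulator of tapetal death, went from 6.50 and 6.30 to 4.83 and 4.60 and fell by 1.69. RAFTIN1, a tapetal protein carried to the pollen wall, was at 9.32 and 7.19 in 2013 and at 8.16 and 6.38 in 2014. It fell by 0.99, but the WT array of 2014 lay above the array labelled ago2-1 of 2013, so its years overlapped. With WT of 2013 left out it changed by 0.0787, and with ago2-1 of 2013 left out by −2.06, neither passing. TDR, a bHLH factor of tapetum breakdown, fell by 0.91 and the lipid transfer protein C6 by 0.91, while EAT1 (−0.06) and MSP1 (−0.30) did not pass. The 5 measured tapetum markers, of which 4 fell, are all genes of this list and so give no separate evidence. Their summed level (log2) was 12.37 and 11.62 in 2013 and 11.49 and 10.72 in 2014.

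Some meiosis genes rose. Of 11 measured, 5 rose (45.5%, against 11.3% of all genes) and 1 fell (9.09%, against 10.8%), with a median of 0.24, and 3 or 2 rose without the WT or the ago2-1 array of 2013. SPO11-3 rose by 1.06 and SPO11-4 by 0.75, both named after the enzyme that cuts DNA to start recombination. CRC1, a factor of chromosome pairing, rose by 0.63, and the crossover genes MER3 (0.53) and MSH5 (0.50) rose too, though a second MER3 probe set changed by −0.91. PAIR1, needed for pairing, fell by 0.59 (−0.49 without the WT array of 2013, −0.69 without that labelled ago2-1), but its sign turned on deposited values (0.0424). The defining meiotic markers PAIR2 (−0.04), MEL1 (0.16) and DMC1 (0.24) did not pass, and the summed level (log2) of the 3 measured meiotic markers was 11.36 and 11.45 in 2013 and 11.53 and 11.47 in 2014.

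Genes of dividing cells rose in part. Of 33 kinesins, motors of the spindle and the microtubules, 7 rose (21.2%, against 11.3% of all genes) and none fell, with a median of 0.35 (4 or 5 rises without the WT or the ago2-1 array of 2013), led by KIN14A, which went from 7.86 and 8.11 to 9.21 and 9.41 (1.33, adjusted p = 0.00475), and KIN14L (1.11). Of 49 cyclins, CDKs and replication genes, 8 rose (16.3%) and 4 fell (8.16%, against 10.8% of all genes, and 1 fall without the WT array of 2013, 2 without that labelled ago2-1). The replicative helicase subunits MCM3 (1.00), MCM6 (0.90), MCM7 (0.79) and MCM2 (0.52) and the sliding clamp PCNA (0.83) rose together with CYCD3-1 (1.05), a cyclin of cell cycle entry. CYCD5-1 (−0.90), CYCB2 at LOC4336670 (−0.55) and CDKA-1 (−0.49) fell. None of the 5 measured histone genes passed.

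Of 34 genes for meristems and branching, 2 rose and 1 fell, fewer than the shares of all genes, with GRF4, a regulator of grain size, up by 0.55. Of 32 MADS-box genes with DL, 2 rose (6.25%) and 3 fell (9.38%), against 11.3% and 10.8% of all genes. MADS58, which helps to end the floral meristem, went from 10.54 and 10.60 to 9.83 and 9.85 (−0.73), and MADS55 fell by 1.24. Of 33 homeodomain genes, 3 rose (9.09%) and 6 fell (18.2%, against 10.8% of all genes), with HOX24 at 1.65, HOX12 at −1.73 and HOX4 at −0.996. Without the WT array of 2013 the rises and falls were 0 and 1 for the meristem list, 0 and 1 for the MADS-box list and 0 and 1 for the homeodomain list, and without that labelled ago2-1 they were 0 and 0, 0 and 1, and 2 and 9.

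Of 29 cellulose synthase genes 4 fell (13.8%, near the 10.8% of all genes) and none rose, among them CESA2 (−1.87), which had a second probe set at 0.34, and CESA7 (−1.17), an enzyme of secondary walls. Of 29 expansins, proteins that loosen walls, 7 fell (24.14%) and 2 rose (6.90%, and 1 without the WT array of 2013). EXPA7 was at 13.02 and 12.97 in 2013 and at 12.01 and 11.89 in 2014, and it fell by 1.04.

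The auxin and cytokinin lists stayed near the shares of all genes. Of auxin genes 6.78% rose and 11.9% fell, and of cytokinin genes 13.8% and 6.90%, against 11.3% and 10.8%. Of 59 auxin genes 4 rose and 7 fell, with IAA12 (−1.33) and the auxin-conjugating GH3.1 (−1.26) farthest down. Of 29 cytokinin genes 4 rose and 2 fell, and the risers were the type-A response regulators RR5 (1.24), RR1 (1.14) and RR4 (0.65) and the cytokinin oxidase CKX3 (0.93). Of 11 gibberellin genes 2 rose (18.2%, against 11.3% of all genes), CPS1 at the start of the pathway by 0.90 and the F-box gene GID2 by 0.46. Of 8 NAC factors 1 rose (12.5%, near the 11.3% of all genes), NAC071 by 1.35. Without the WT array of 2013 the rises were 2 for auxin, 2 for cytokinin and 0 for gibberellin and NAC genes, with 4 falls for auxin and 1 for cytokinin, and without that labelled ago2-1 the rises were 0, 2, 1 and 0, with 1 fall each for cytokinin and NAC genes.

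Of 19 small RNA genes measured, 4 rose and 2 fell, none by 2-fold, and 1 and 0 did without the WT array of 2013 or 0 and 1 without that labelled ago2-1. The risers (21.1%, against 11.3% of all genes) were AGO17 (0.63), AGO2, the Dicer-like DCL4 (0.56) and DCL2A (0.55). The genes that fell (10.5%, against 10.8% of all genes) were AGO18 (−0.60) and the RNA polymerase RDR2 (−0.46). The AGO1 genes AGO1A, AGO1B and AGO1D lay between −0.02 and 0.06. AGO3, next to AGO2 on its chromosome, did not pass (0.22).

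Transport and metabolism held single large changes. Of 25 aquaporins 6 rose and 4 fell, with PIP2-4 of the plasma membrane at 2.11, from 9.80 and 10.41 to 12.11 and 12.31, and TIP4-1 of the vacuole at −2.02. Of 90 genes for nutrient and metal transport 7 rose (7.78%) and 17 fell (18.9%). The iron-complex carrier YSL15 rose by 1.65 and the ammonium carrier AMT1-2 by 1.57, both from dim levels in 2013, and YSL12 fell by 2.09 with a second probe set at 0.04. Of 56 sugar genes 11 rose (19.6%) and 6 fell (10.7%), the sugar exporter SWEET15 up by 1.03 and the sucrose synthases SUS3 (−0.95) and SUS4 (−1.28) down. Without the WT array of 2013 the rises and falls were 1 and 3 for aquaporins, 3 and 6 for metal and nutrient transport and 7 and 1 for sugar genes, and without that labelled ago2-1 2 and 4, 4 and 18, and 4 and 5.

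Defence genes fell where they passed. Over all genes 11.3% rose and 10.8% fell, and each share in this paragraph is to be read against those. Of 17, 5 fell (29.4%) and none rose, led by the chitinase Cht1 at LOC4342115, which went from 6.75 and 5.26 to 4.22 and 2.88 (−2.46, adjusted p = 0.00148, and −1.69, adjusted p = 0.117, without the WT array of 2013). NH1, the rice counterpart of the salicylic acid receptor NPR1, fell by 0.73. Of 29 cytochrome P450 genes 1 rose (3.45%) and 8 fell (27.6%), CYP703A3, AOS2 and ABA8OX2 (CYP707A6) from above among the latter. Of 12 diterpenoid and phenylpropanoid genes 2 rose and 3 fell, between −0.62 and 0.83. Of 16 genes of reactive oxygen 1 rose (6.25%), APX2 by 0.53, and 2 fell (12.5%), catA (−0.56) and APX7 (−0.47). Of 77 calcium sensors and kinases 8 rose (10.4%) and 11 fell (14.3%), near the 11.3% and 10.8% of all genes, with the kinase CIPK14 at 1.48 and CML27 at −1.90. Without the WT array of 2013 the falls were 0 for defence, 4 for P450, 0 for diterpenoid, 0 for reactive oxygen and 5 for calcium genes, and CML27 did not pass (−0.46, adjusted p = 0.359). Without that labelled ago2-1 they were 6, 9, 1, 0 and 14. The rises of diterpenoid, reactive oxygen and calcium genes were 0, 0 and 4 and then 0, 0 and 5.

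Genes that moved in 1 genotype only were next. With 1 array per genotype and year the difference between the genotypes' changes is the only residual, so it could not be tested and what follows is a description. A gene was counted when its change was at least 4-fold in 1 genotype and under 0.5 log2 in the other, with its highest level above 5.18, the median of all probe sets. In WT only, 71 genes were lower in 2014 (0.397%) and 3 higher (0.0168%). In the arrays labelled ago2-1 only, 5 were higher (0.0279%) and 3 lower (0.0168%). At the 4-fold limit, 9 genes lay just inside for WT (changes of 2.004 to 2.099) and 7 just outside (1.908 to 1.996).

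In 68 of the 71 genes the WT array of 2013 was the one farthest from the median of the 4, and in 3 the WT array of 2014 was. Their median difference, labelled ago2-1 minus WT, was −2.24 in 2013 and 0.21 in 2014. The rule fixes that a WT array stands out in nearly all of them and, since the difference between the genotypes is the residual, that few can pass the fit across both genotypes (none did).

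TIFY11E, a JAZ repressor, was at 11.88 on the WT array of 2013 and at 6.63, 6.28 and 6.30 on the other 3, with changes of −5.60 in WT and −0.34 in the arrays labelled ago2-1. MYB2, a stress-response MYB factor, was at 6.71 on the WT array of 2013 and at 1.98 to 2.32 elsewhere. BHLH148, a factor known to bind JAZ proteins in rice, was at 10.37 there and at 5.86 to 6.38 elsewhere. TIFY11B was at 12.60 there and at 8.52 to 8.94 elsewhere. In each of these 4 genes 1 array stood above 3 that lay close together.

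WRKY71, a defence and gibberellin-response factor, was at 11.13 in WT in 2013, at 8.07 on the array labelled ago2-1, and at 6.73 and 8.04 in 2014. CPK21, a calcium-dependent kinase, was at 8.30 and 5.26 and then at 4.39 and 5.36, and BURP17 was at 8.11 and 5.84 and then at 4.18 and 6.08. In these 3 genes the WT array was the highest in 2013 and the lowest in 2014. DREB1G, a cold and drought factor, was at 9.64 and 4.74 in 2013 and at 5.98 and 4.30 in 2014, with both arrays labelled ago2-1 under both WT arrays.

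The WT array of 2013 stood alone in members of several families. It was at least 2-fold above the other 3 in 4 of 9 DREB and ERF genes (44.4%), 2 of 6 WRKY genes (33.3%), 6 of 39 jasmonate genes (15.4%), 2 of 17 defence genes (11.8%) and 7 of 77 calcium genes (9.09%), against 2.27% of all genes. In 11 other lists its share ran from 2.04% (cyclins) to 8.33% (tapetum). In the remaining 16 lists, all of them too short for that share to give 1 gene, it did so in none. The median change of the DREB and ERF list was −1.72 in WT and 0.02 in the arrays labelled ago2-1, and of the WRKY list −1.69 and −0.34. DREB1B, a cold-response factor, was at 10.53 and 7.95 in 2013 and at 7.36 and 6.57 in 2014 and fell by 2.27 (adjusted p = 0.0187), but did not pass without the WT array of 2013 (−0.99, adjusted p = 0.136). DREB1C rose by 0.78. Without the WT array of 2013 no DREB or ERF gene passed, and without that labelled ago2-1 4 fell and none rose, with 4 falls among WRKY genes. TPP1, a trehalose phosphate phosphatase, was at 11.78 on the WT array of 2013 and at 7.97 to 8.76 elsewhere and did not pass. TPP7, of the same family, fell by 1.96, with −3.06 in WT and −0.86 in the arrays labelled ago2-1, and did not pass without the WT array of 2013 (−0.55, adjusted p = 0.255).

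JAZ genes that lie side by side differed in this respect. TIFY11A, TIFY11C and TIFY11B are consecutive genes, and their changes were −1.58, −4.43 and −4.08 in WT and −0.83, −2.53 and −0.03 in the arrays labelled ago2-1. TIFY11D and TIFY11E, with 3 genes between them, changed by −4.53 and −5.60 in WT and by −1.66 and −0.34 in the arrays labelled ago2-1. Relatives this close may share hybridization.

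The few genes that moved in the arrays labelled ago2-1 only included 2 with a name. BZIP52, a leucine zipper factor, was at 7.82 and 6.73 in 2013 and at 8.26 and 9.04 in 2014, changes of 0.44 in WT and 2.30 in the arrays labelled ago2-1. GRXC10, a glutaredoxin, was at 6.43 and 9.55 in 2013 and at 6.14 and 6.83 in 2014, where the array labelled ago2-1 of 2013 stood above the other 3. Opposed changes of at least 2-fold each way were found for 12 genes, 3 higher in WT and lower in the arrays labelled ago2-1 (0.0168%) and 9 the other way (0.0503%). DREB1A, a cold-response factor, was at 7.61 and 6.14 in 2013 and at 5.76 and 7.73 in 2014. ABA8OX1, which breaks down abscisic acid, was at 9.30 and 6.49 in 2013 and at 7.78 and 7.64 in 2014. In both genes WT was above the array labelled ago2-1 in 2013.

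**Figure D5:**
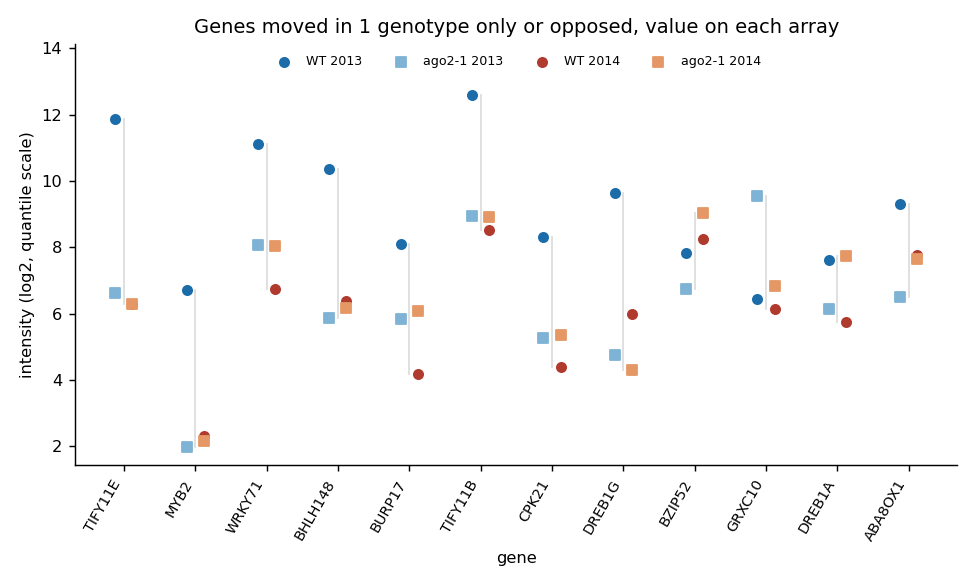
Intensity (y axis, log2, quantile scale) on each of the 4 arrays, 1 point per array, for the named genes that moved in 1 genotype only or in opposite directions (x axis). From TIFY11E to DREB1G the WT array of 2013 (dark blue circle) is the highest of the 4, and TIFY11E runs from 11.88 down to 6.28.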

How the data were processed

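The authors deposited 1 intensity per probe set and array, linear, from 1.90 to 27773, while the RMA that the submitters' processing notes name, without a version, usually gives log2 values. The label on RNA extraction speaks of brain tissue of another species and was not used. Log2 was taken with no pseudocount, the 4 arrays were quantile normalized, and limma 3.58.1 under R 4.3.3, through lmFit with eBayes, tested year with genotype as a term, 2-sided, with Benjamini-Hochberg adjustment over 57194 probe sets. Genotype pairs the arrays of the years, since each pair is 1 line.

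Annotation ties 22436 probe sets to 1 gene, 95 to several and lists none for 34663. Names came from the symbols and, since few genes carry one other than LOC and a number, from the synonyms of the RefSeq table (assembly ASM3414082v1), which matched all 17905 genes and named 2457. Named genes are first the 15 largest rises and falls shared by both genotypes and 3 unnamed ones each way. For these the mean of the higher year had to lie above the median of all probe sets. Added to them were up to 4 that passed in each of 32 lists, with other members of lists described. The rest were up to 8 for each kind of change in 1 genotype, up to 6 opposed ones and AGO2. Members and lists were chosen with earlier results of these data known. Promoter motifs were not analysed here. Alternatives were 3 other scalings, a limit on dim probe sets, other prior variances, no genotype term, fewer probe sets, other thresholds, the mean over a gene's probe sets and each array left out.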

Additional observations from a re-analysis of the deposited data

Results flagged for a closer look

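Some genes named above moved one way in WT and the other way in the arrays labelled ago2-1, and these differences were not tested, since each genotype has 1 array a year. DREB1A changed by −1.86 in WT and 1.58 in the arrays labelled ago2-1, a difference of 3.44, and ABA8OX1 by −1.53 and 1.15, a difference of 2.67. For MYB2 (−4.39 and 0.17, a difference of 4.56), BHLH148 (−3.99 and 0.31, 4.30), BURP17 (−3.93 and 0.24, 4.17) and CPK21 (−3.91 and 0.10, 4.01) the change in the arrays labelled ago2-1 was small. In all 6 genes the WT array of 2013 lay above the array labelled ago2-1 of that year.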

How the results depend on the processing

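The number of arrays limits every result, and year, season, hour and array batch cannot be told apart. The 2 sides of the year comparison share the genotypes' numbers, and without the genotype term, that is with no replicate block, 4992 probe sets were higher and 4245 lower and 367 and 310 genes moved alike, while listed members that fell went from 124 to 77. Deposited values, which keep the shift of 0.71 between the years, gave 44735 probe sets higher and 1323 lower, 2299 and 121 genes alike, 583 and 38 listed members, and 19 genes opposed with WT lower in place of 9. Limiting to bright probe sets, of which fewer were tested, gave 2709 and 2262 probe sets, 248 genes lower alike and 67 listed members lower. An adjusted p under 0.1 gave 10937 and 9982, and a 2-fold limit 1287 and 1599. Leaving out 1 array, without a genotype term, gave 0 to 4103 probe sets higher and 0 to 4217 lower, and 0 to 69 listed members higher and 0 to 129 lower, with 0 whenever an array of 2014 was left out. The mean over a gene's probe sets gave 76 listed members higher, against 118, and 67 lower. Of the 136 genes followed, 124 passed with all 4 arrays, and 39 of these no longer passed with that mean. A limit of 3 in place of 2 log2 for changes in 1 genotype left 22 genes lower and 0 higher in WT, and 1 higher and 0 lower in the arrays labelled ago2-1, and a 4-fold limit left 0 and 1 opposed genes. Centring on the median, cyclic loess, a trend in the prior and a robust prior kept all these counts within 1.5 times. On deposited values the sign turned for CSLC3 (0.0252), SPL16 (0.13), PAIR1 (0.0424), AGO18 (0.0289), catA (0.0675), APX7 (0.14), Cht11 (0.17), KSL4 (0.27) and 4CL4 (0.0540), and with 1 array of 2013 left out RAFTIN1 ran from −2.06 to 0.0787. Of 136 genes followed through the alternatives, 52 no longer passed without the WT array of 2013 and 32 without that labelled ago2-1. Among those named above these were, in both cases, AGO2, APX2, APX7, CKX3, CYP703A3, DCL4, DREB1C, GID2, GRF4, KSL4, MADS50, MADS55, NAC071, NH1, PAIR1, PP2C68, RAFTIN1, RR4, SPL16, 4CL4, Cht11 and catA. In the first case only, they were AGO18, C6, CML27, CPS1, Cht1, DREB1B, HOX12, HOX24, HOX4, IAA12, LEA19, LOC4349162, MT1A, PHOT2 and TPP7, and in the second only AGO17, CRC1 and CSLC3. These losses are to be read against the 124 followed genes that passed with all 4 arrays. Other genes named above, such as PRR95, MER3, MSH5, TDR and TIFY5, were not followed 1 by 1. A gene missing from these names need not have kept its call. These fits hold fewer arrays and no genotype term.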
